A study of Mus musculus with 6 samples.

Results

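KP1 is a cell line of mouse small cell lung cancer, a neuroendocrine carcinoma of the lung, derived from a mouse model in which Rb (Rb1), p53 (Trp53) and p130 (Rbl2) were all knocked out. The resting state of these cells was read from 3 arrays of cells that had received an empty ires-GFP vector, out of 6 arrays in the series. The cells were grown in RPMI medium with bovine growth serum, sorted for GFP 48 hours after transfection, and each sample's total RNA was hybridised to its own Affymetrix array of the Mouse Gene 2.0 ST type. The labels call the 3 samples biological replicates and do not say whether they came from separate cultures, so each SD below is the spread between these 3 arrays, which may be technical. All samples share the knocked-out genes, the single cell line, the transfection and the sort. The members were the 22180 genes with at least 1 probe set of a single symbol, among 41345 probe sets, each gene represented by its brightest probe set over these 3 arrays.

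Neuroendocrine cells store peptides and amines in dense-core granules and release them through a calcium-triggered fusion machinery that they share with neurons. In the lung the rare normal neuroendocrine cells are set up by a cascade of proneural transcription factors, and small cell lung cancer keeps much of this program while losing the RB and p53 brakes on cell division. Tumours and lines of this cancer are commonly sorted by lineage regulators, among them NEUROD1, POU2F3 and YAP1. Trp53 was not analysed here.

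The deposited values are log2 signals, so 1 unit is a doubling of signal. An array signal is not scaled to transcript length or probe affinity, and a level set against another gene's level is only a description. To judge how far such a comparison can be read, the probe sets of a single gene were set against each other in the 1082 genes that had more than 1. The brightest lay above the next by a median of 1.64 log2 units, and in 1 gene of 10 by more than 3.94. A percentile below is a gene's place among the 22180 genes, 100 being the brightest.

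Gene means ran from 1.31 to 13.94 with a median of 6.16. The 1373 olfactory and vomeronasal receptor genes, which act mainly in sensory neurons, had a median of 3.34 and were used as a floor. Whether KP1 cells express any of them was not tested. A gene was counted as above the receptor reference where its signal exceeded the 95th percentile of these receptor genes on each of the 3 arrays, a level of 5.63, 5.53 and 5.49. By this rule 12551 genes (56.6% of all tested) were above, 8407 (37.9%) were above on no array and 1222 (5.51%) on 1 or 2 arrays. This floor was lenient: 7 of 11 skeletal muscle genes and 9 of 51 hair keratin-associated protein genes also passed it. A stricter keratin-associated reference, the 95th percentile of those 51 genes (7.07, 7.08 and 6.92), was passed on each array by 8465 genes (38.2%). These shares of all genes, 56.6% and 38.2%, are the background for the list counts below. Signals between these references could not be told from those of genes of a silent tissue.

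**Figure D1:**
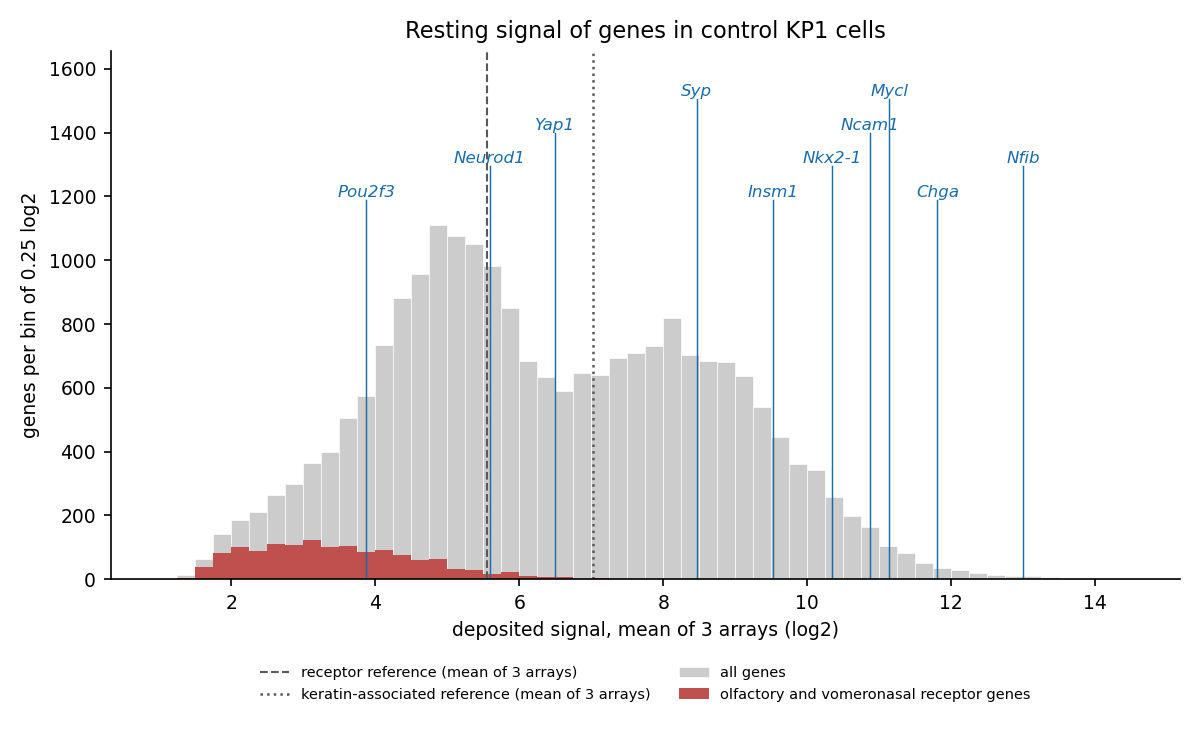
Histogram of the mean signal of 22180 genes over the 3 control arrays (x axis, log2; y axis, genes per bin), with the olfactory and vomeronasal receptor genes in red. Dashed and dotted lines mark the receptor and keratin-associated references, and blue lines mark 10 lineage genes: Nfib at 13.00 stands at the far right, Neurod1 at 5.59 on the receptor reference and Pou2f3 at 3.88 among the receptor genes.

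Of the 5 neuroendocrine markers that were to check the label, 4 were clearly above both references and 1 was not. Chga, which encodes chromogranin A, the acidic core protein of dense-core granules, read 12.01, 11.68 and 11.74 (mean 11.81 ± 0.17, SD, n = 3). Ncam1, a neural adhesion molecule, read 10.78, 10.83 and 11.02, and Insm1, a zinc-finger repressor that neuroendocrine differentiation requires, read 9.45, 9.52 and 9.60. Syp, the synaptic vesicle protein synaptophysin, read 8.48, 8.44 and 8.47, but its other probe set averaged 4.23. Neurod1, a proneural bHLH factor, read 5.62, 5.44 and 5.70, above the receptor reference in replicate 3 alone. Neurod1 therefore went against the label, while Chga stood at percentile 99.5, Ncam1 at 98.0, Insm1 at 90.6 and Syp at 78.5.

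The sequences just upstream of 3 of these markers are shown with that of Alb, the hepatocyte albumin gene, which read 4.28, 4.26 and 4.25, because the share of CG dinucleotides in this stretch differed between bright and dim genes (described further on). Each is the 250 bases before the gene's start in RefSeq on build GRCm38.p6, 5′ to 3′ on the gene's strand, with every CG in capitals. Chga lies at chr12:102554691-102554940 (plus strand), Syp at chrX:7638330-7638579 (plus strand), Neurod1 at chr2:79456637-79456886 (minus strand) and Alb at chr5:90460620-90460869 (plus strand).
Chga: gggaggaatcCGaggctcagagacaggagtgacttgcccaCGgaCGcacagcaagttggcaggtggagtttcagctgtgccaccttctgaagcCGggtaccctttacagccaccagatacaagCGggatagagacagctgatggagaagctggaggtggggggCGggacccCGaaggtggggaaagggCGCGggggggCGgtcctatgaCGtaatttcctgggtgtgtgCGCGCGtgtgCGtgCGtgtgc
Syp: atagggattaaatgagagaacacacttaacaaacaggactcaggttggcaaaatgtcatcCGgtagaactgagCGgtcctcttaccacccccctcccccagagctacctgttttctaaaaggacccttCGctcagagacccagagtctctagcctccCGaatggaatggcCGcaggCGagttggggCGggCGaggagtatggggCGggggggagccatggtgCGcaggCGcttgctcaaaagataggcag
Neurod1: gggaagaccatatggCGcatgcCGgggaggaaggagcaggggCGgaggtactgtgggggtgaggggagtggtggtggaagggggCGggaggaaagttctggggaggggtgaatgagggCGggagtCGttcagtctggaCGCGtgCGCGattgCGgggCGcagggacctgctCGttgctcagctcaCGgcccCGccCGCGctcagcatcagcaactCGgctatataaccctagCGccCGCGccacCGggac
Alb: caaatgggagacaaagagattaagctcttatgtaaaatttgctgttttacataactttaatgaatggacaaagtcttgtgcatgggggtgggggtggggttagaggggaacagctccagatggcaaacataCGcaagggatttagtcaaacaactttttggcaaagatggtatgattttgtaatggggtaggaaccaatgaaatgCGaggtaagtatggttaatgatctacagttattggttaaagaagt
They hold 16, 11, 22 and 2 CG dinucleotides in this order. Neurod1 has the most CG of the 4 and a signal at the floor, so this stretch does not order these genes by level.

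Rb1 and Rbl2 were the knocked-out genes measured here. Rb1 read 10.48, 10.40 and 10.45 on its brightest probe set (percentile 96.5) and a mean of 5.30 on its other, below the receptor reference levels of all 3 arrays. Rbl2 read 8.77, 8.91 and 9.08 (percentile 84.1). Which exons these probe sets cover was not analysed here, and a probe set outside a deleted stretch checks nothing about the knockout. The third pocket protein gene, Rbl1 (p107), was intact by the labels and read 9.20, 9.29 and 9.15.

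Among 43 measured neuroendocrine and neural transcription factors, 30 (69.8%) were above the receptor reference, close to the 66.2% of protein-coding genes other than the receptors. Of these, 23 were also above the keratin-associated one, and 13 stood in the highest 10% of all genes. Nfib, a nuclear factor I gene known as an oncogene of small cell lung cancer, read 13.02, 13.05 and 12.94 and ranked 17 of 22180. Foxa1, a forkhead pioneer factor of endoderm, averaged 11.18 ± 0.04, and Foxa2 9.37 ± 0.05 (SD, n = 3). Mycl, the MYC paralog first found in small cell lung cancer, read 11.04, 11.34 and 11.04. Tox3 (10.85 ± 0.08) and Prox1 (10.72 ± 0.04) followed. Sox11 (10.35), Sox4 (10.34) and Tcf4 (10.34), factors of neuronal differentiation, were nearly equal, and Sox11 and Sox4 changed order between arrays. Nkx2-1, the homeobox factor that specifies lung epithelium, averaged 10.34 ± 0.09.

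At the other end of this list, Pou3f4 (4.61), Rfx6 (3.97) and Neurod6 (3.38) were above the reference on no array, and Neurog1 averaged 4.92. Of the subtype regulators, Pou2f3, the tuft cell factor, read 3.92, 3.80 and 3.90 (percentile 12.3). Yap1, the Hippo pathway coactivator, read 6.57, 6.44 and 6.47 on its brightest probe set and 2.84 on average on its other, and passed only the lenient reference. Neither Neurod1 nor Pou2f3 nor Yap1 passed the keratin-associated reference on any array.

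The neuroendocrine marker list was bright almost throughout. All 29 measured members were above the receptor reference and 25 above the keratin-associated one, with a median percentile of 84.1. Neurod1, the marker that went against the label, was not a member of this list, so these counts leave it out. Among all genes 56.6% and 38.2% passed these references. The 8 brightest were Snap25 (11.88), Chga, Uchl1 (11.35), Scg3 (11.03), Ncam1, Cplx2 (10.45), Kif5c (10.23) and Kif1a (10.17). Uchl1, the neuronal deubiquitinase PGP9.5, had a second probe set at 5.78. The dimmest were Grp (7.39), Eno2, Tph1 (6.90) and Gad1 (6.08). Eno2, the neuron-specific enolase that serves as a serum marker of this cancer, read 6.77, 7.04 and 7.20, so it crossed the keratin-associated reference on 1 array. Grp, gastrin-releasing peptide, read 7.59, 7.03 and 7.55.

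The machinery that makes and fills dense-core granules was largely bright (median percentile 82.3). Above the receptor reference were 31 of 34 members (91.2%), against 56.6% of all genes, and above the stricter one 27, against 38.2%. Of the granins, the proteins that drive granule formation, Chga and Scg3 led, and Chgb averaged 9.90 ± 0.20, Scg5 9.16 ± 0.04, Scg2 8.60 ± 0.21 and Vgf 7.16 ± 0.11. The processing enzymes ran in the same range: Cpe, carboxypeptidase E, averaged 11.17 ± 0.07, Pcsk1, a prohormone convertase, 10.90 ± 0.16 and Pam, the peptide-amidating enzyme, 10.42 ± 0.07. Tmem163, a zinc transporter of vesicles, averaged 11.36 ± 0.07 and Cadps2, a priming factor for granule release, 10.69 ± 0.05. The amine transporters of granules stood near the floor: Slc18a1 averaged 5.70 and Slc18a2 read 5.48, 5.20 and 5.38. Ddc, the decarboxylase that makes dopamine and serotonin, averaged 10.07 ± 0.13. Rab27b (4.98) and Sytl4 (5.14) were above on no array, whereas Rab27a, the paralog of Rab27b in granule docking, averaged 10.12 ± 0.09.

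The cargo did not share this range. Of 59 measured precursors of neuropeptides and peptide hormones, 24 (40.7%) were above the receptor reference, under the 56.6% of all genes and the 66.2% of protein-coding genes other than the receptors, and 3 passed the keratin-associated reference: Penk, Adm2 and Cartpt. Penk, the enkephalin precursor, was the brightest and read 8.77, 7.89 and 8.02. Adm2 (7.31 ± 0.03) and Cartpt (7.13 ± 0.02) varied little between arrays. Grp was the second brightest and missed the stricter reference in replicate 2. The next were Edn3 (6.94), Npw (6.69), Sct (6.61) and Ppy (6.56). The 4 dimmest were Nps (4.31), Kiss1 (4.08), Pth (3.79) and Npvf (3.46). No member stood in the highest 10% of genes, against 13 of the 34 granule genes. Calca was not analysed here.

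Genes of the synaptic vesicle and its fusion machinery were above the receptor reference in 32 of 33 cases (97.0%), against 56.6% of all genes. Above the keratin-associated one were 29, against 38.2% of all genes (median percentile 78.5). Snap25, the SNARE protein at the plasma membrane, read 11.97, 11.75 and 11.91. Syt1, a calcium sensor of vesicle fusion, and its paralog Syt11 averaged 11.03 ± 0.04 and 10.21 ± 0.06. Nsf, the ATPase that takes SNARE complexes apart, averaged 9.50, and the priming and active zone genes Unc13a (9.30), Cadps (9.29) and Rims3 (9.26) lay close together. The dimmest 4 were Vamp1 (6.63), Syngr1 (6.51), Stx1a (5.76) and Syt5 (5.64). Syp and Snap25 also belong to other lists here, so these counts overlap.

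Neural microRNA loci read low. Only 3 of 18 (16.7%) were above the receptor reference, and none passed the keratin-associated one. Low signal was common to microRNA loci on this array: 21.7% of all 483 were above, against 56.6% of all genes, and the median percentile was 20.3 over all loci and 18.2 over the neural ones. A probe set on such a locus reads the precursor or its host transcript in total RNA and says nothing about the mature strand. The 5p mature sequences of the 3 loci above, and of 1 paralog with the same seed, are shown because loci with the same product differed in signal. They are from RefSeq on GRCm38.p6, 5′ to 3′, with the seed (bases 2 to 8) in capitals. Only the 5p arm of each locus is shown, so each seed is that of this arm alone. Which arm is the active one was not analysed here.
miR-375-5p (Mir375, chr1:74900696-74900717, minus strand): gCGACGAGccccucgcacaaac
miR-9-5p (Mir9-3, chr7:79505279-79505301, plus strand): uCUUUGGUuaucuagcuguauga
miR-7a-5p (Mir7-1, chr13:58392841-58392863, minus strand): uGGAAGACuagugauuuuguugu
miR-7b-5p (Mir7b, chr17:56243017-56243040, plus strand): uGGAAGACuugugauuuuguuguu
Mir375, a locus of endocrine cells, read 7.03, 6.89 and 6.59. The same miR-9-5p is encoded by 3 loci, and Mir9-3 averaged 6.36, Mir9-1 4.44 and Mir9-2 1.90. The loci sharing the seed GGAAGAC averaged 5.96 (Mir7-1), 5.70 (Mir7b) and 5.18 (Mir7-2). The dimmest of the list were Mir183 (2.64), Mir137 (2.01), Mir9-2 and Mir124a-3 (1.53).

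The cell cycle lists had the highest median percentiles of the functional lists after the housekeeping genes. All 41 measured G1/S and DNA replication genes and all 44 G2/M and mitosis genes were above the receptor reference, against 56.6% of all genes. Above the keratin-associated one were 40 and 44, against 38.2% of all genes. The median percentiles of these lists were 90.9 and 92.8, against 96.6 for 12 housekeeping genes. Pcna, the sliding clamp of DNA polymerase, read 11.96, 11.89 and 11.94. Rrm1, the large subunit of ribonucleotide reductase, averaged 11.33 ± 0.07. The replicative helicase subunits were of similar level, with Mcm6 at 11.17, Mcm5 at 10.97, Mcm7 at 10.92, Mcm2 at 10.89 and Mcm4 at 10.79. Orc1, a subunit of the origin recognition complex, was the dimmest at 6.63. Among mitotic genes Mki67 read 11.99, 12.07 and 12.03. Ect2 (11.33), Top2a (11.11), Ccna2 (11.10), Smc4 (11.07) and Ndc80 (10.95) came next, and Pttg1 was the dimmest at 7.64. Rb1 and Rbl2 restrain the E2F factors that drive many genes of both lists. All 8 E2f genes were above the receptor reference, led by E2f8 (9.53 ± 0.06).

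All 8 CDK inhibitors were above the receptor reference and 7 above the stricter one. Cdkn2a, which encodes p16 and p19ARF, was the brightest at 11.08, 10.91 and 11.07 (percentile 98.4). Cdkn1b (p27) averaged 10.21 ± 0.11, Cdkn2c (p18) 9.43 ± 0.09, Cdkn1a (p21) 8.78 ± 0.17, Cdkn2d 8.73 ± 0.13, Cdkn3 8.30 ± 0.02, Cdkn1c 7.70 ± 0.19 and Cdkn2b 6.89 ± 0.19. Of 25 measured p53 target genes, 22 (88.0%) were above the receptor reference and 17 above the stricter one. Of all genes 56.6% and 38.2% passed these references, and 66.2% of protein-coding genes other than the receptors passed the receptor one. Sulf2 (10.07), Mdm2 (9.79), Ei24 (9.76) and Btg2 (9.35) were the brightest. Fas, a death receptor gene, read 3.81, 3.64 and 4.09, Perp averaged 5.07, and Tnfrsf10b 5.84. No sample with intact p53 was measured.

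Of 21 measured surface proteins discussed as targets in this cancer, 18 (85.7%) were above the receptor reference and 14 above the keratin-associated one. The shares over all genes were 56.6% and 38.2%. Cd24a led at 12.24, 12.22 and 12.42, with Cd47 at 9.93, Kit at 9.56, Cxcr4 at 9.29, Cd276 at 9.14 and Igf1r at 8.94. Dll3, an inhibitory Notch ligand and the target of engineered antibodies, read 8.57, 8.44 and 8.66. The lowest were Prom1 (5.67), Chrnb4 (5.64), Chrna5 (4.92) and Met (4.70). Of 12 antigen presentation genes 7 (58.3%) were above the receptor reference, close to the 56.6% of all genes. This was under the 66.2% of protein-coding genes other than the receptors. Only 2 of the 12 were above the keratin-associated one, against 38.2% of all genes: the light chain gene B2m (9.87 ± 0.10) and Tapbp (7.56). H2-K1 averaged 6.96, Tap2 4.94 and H2-Ab1 4.71, and H2-Aa was the dimmest.

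Markers of immune and glial cells were mostly near the floor, and those of endothelial cells and fibroblasts were mixed. Of 13 macrophage markers 3 (23.1%) were above the receptor reference, against 56.6% of all genes. None was above the keratin-associated one, against 38.2% of all genes, and Ptprc averaged 3.44. Of 8 lymphocyte markers 1 was above the receptor reference (Cd79a, 5.71) and none above the stricter one, and of 9 astrocyte and oligodendrocyte markers 1 was above both (Mbp, 7.59). Of 10 endothelial markers 4 were above the receptor reference, Tek (7.75) alone passed the stricter one, and Cdh5 averaged 4.92. Of 10 fibroblast markers 5 (50.0%) were above the receptor reference. Fbln1 (9.44 ± 0.02) and Pdgfra (8.97 ± 0.24) passed the stricter one, whereas Col1a1 averaged 6.07, Col1a2 5.34, Col3a1 5.38 and Dcn 5.95.

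Lists of other lung lineages held at most 2 genes above the keratin-associated reference. Of 9 alveolar type 2 markers 3 (33.3%) were above the receptor reference and 2 above the stricter one, against 56.6% and 38.2% of all genes. Sftpc, the surfactant protein C gene of alveolar type 2 cells, read 8.37, 8.87 and 8.70, and Abca3, its lipid transporter, 8.55, 8.42 and 8.48. Sftpb (5.34), Sftpd (5.10), Sftpa1 (4.92) and Lamp3 (3.87), which mark the same cells, were above on no array. Of the 6 alveolar type 1 markers 5 (83.3%) were above the receptor reference, Rtkn2 (7.77) and Aqp5 (7.47) passed the stricter one, and Ager averaged 6.37. Among 11 airway markers 5 were above the receptor reference and 1 above the stricter one: Tppp3, a ciliated cell marker, averaged 8.49 ± 0.17, and Scgb1a1, the club cell secretoglobin, 3.32 ± 0.09. Of the 12 tuft cell markers 4 were above the receptor reference and Dclk1 (8.28 ± 0.18) alone above the stricter one. The epithelial list was split: 9 of 18 members (50.0%) were above the receptor reference and 4 above the stricter one. Cd24a, Cldn3 (9.28), Spint2 (8.74) and Epcam (8.26) passed both references, while Cdh1, E-cadherin, read 5.26, 5.56 and 5.16, and Esrp1 averaged 4.31.

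Neuron markers passed the receptor reference in 12 of 13 cases and the stricter one in 10, with Elavl3 (11.71 ± 0.08), Map2 (10.14 ± 0.02), Tubb3 (9.85 ± 0.13) and Nefh (9.70 ± 0.14) after Snap25. Stmn2 averaged 5.50 and was above on no array. Of 19 markers of the non-neuroendocrine state of this cancer 13 (68.4%) were above the receptor reference, close to the 66.2% of protein-coding genes other than the receptors, and 5 (26.3%) above the keratin-associated one, under the 38.2% of all genes. Those 5 were Vim (9.96), Emp1 (8.89), Zeb1 (8.71), Lgals1 (8.33) and Tgfb2 (7.92). Emp1 had a second probe set at 3.86. Rest, the repressor of neuronal genes, averaged 4.97 ± 0.13 and Cav1 4.39 ± 0.05, both above on no array. The Y-linked genes Eif2s3y (8.36), Uty (7.75) and Kdm5d (7.51) were above both references and Xist averaged 3.82.

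**Figure D2:**
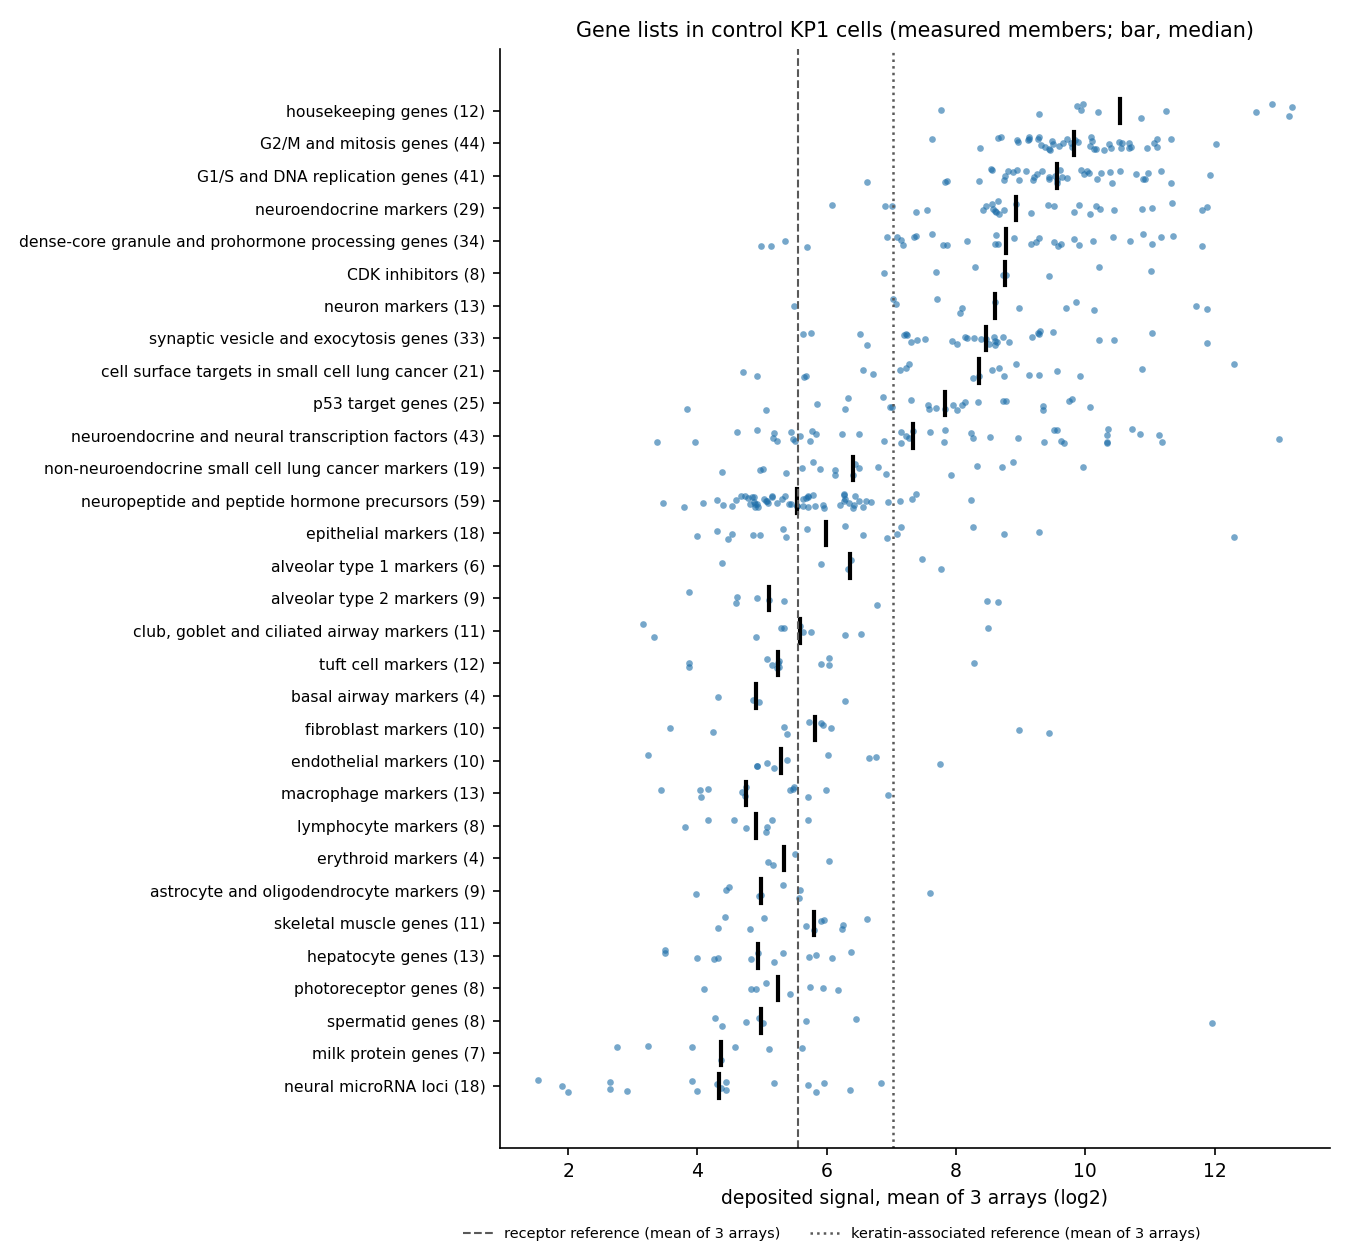
Mean signal over the 3 control arrays (x axis, log2) of the measured members of 31 gene lists (rows, with the number of members), each point a gene and each black bar the list median. Cell cycle, granule and synaptic lists lie mostly right of the dotted keratin-associated reference, whereas the peptide precursors centre on the dashed receptor reference with Penk at 8.23 as the brightest.

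The brightest 20 genes held few lineage genes. Rn7sk, a small nuclear RNA that restrains transcription elongation, was highest at 13.94 ± 0.04, and 8 mitochondrially encoded genes (ND4, CYTB, COX1, ND1, ND5, ND3, ND4L and ND2) were among them at 13.02 to 13.70. Ptma (13.42), Tubb5 (13.20), Rpl21 (13.16), Eef1a1 (13.14), Rpl28 (13.02), Cox6a1 (13.02), Rps6 (12.96) and the histone gene H4c12 (12.95) were abundant in this set. The remaining 3 were Cap1 (13.33), an actin regulator, Nfib, and Kdm1a (12.95), the histone demethylase LSD1. All 3 are protein-coding genes of chromosome 4. Ribosomal protein genes can share probe sequence with their many pseudogenes, and their values are uncertain for that reason. Of 67 measured, 62 were above the receptor reference and 50 above the stricter one, against 56.6% and 38.2% of all genes.

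Paralog choice was described in 67 families with at least 2 measured members, by the gap between the brightest member and the next. The median gap was 1.25 log2 units, and 62 families kept the order of these members on all 3 arrays. In 25 families the gap exceeded the median gap between probe sets of 1 gene (1.64), and in 5 it exceeded the 90th percentile of 3.94. Those 5 were Slc2a1 over Slc2a3 (6.30 ± 0.08), Ccnb2 over Ccnb3 (5.75 ± 0.14), Ccna2 over Ccna1 (4.17 ± 0.12), Mycl over Myc (4.08 ± 0.28) and Insm1 over Insm2 (4.03 ± 0.18; SD of the gap over 3 arrays). The other gaps were within the disagreement seen between probe sets of a single gene in at least 1 gene of 10. Slc2a1, the glucose transporter GLUT1, read 12.74, 12.98 and 13.02 on its brightest probe set and 6.42 on average on its other, below the 6.61 of Slc2a3. That order therefore rests on 1 probe set. Ccnb2, Ccna2, Mycl and Insm1 had 1 probe set each, so no other probe set could check their orders.

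In the MYC family Mycl read 11.04, 11.34 and 11.04, Myc 7.08, 6.94 and 7.16 and Mycn 6.29, 6.44 and 6.30. Myc and Mycn lay closer together than the median gap of 1.64 between probe sets of a single gene, so no order is read between them. Among the kinases that pair with D cyclins Cdk4 averaged 11.90 ± 0.03 and Cdk6 8.11 ± 0.14, a gap of 3.79. All 3 D cyclins were above the receptor reference and Ccnd3 alone above the stricter one, with Ccnd3 at 8.02, Ccnd2 at 6.34 and Ccnd1 at 6.29. Nfib exceeded Nfix by 3.74, Nfix averaging 9.27, Nfic 9.04 and Nfia 6.85. Tead1, a DNA-binding partner of YAP1, averaged 10.04 ± 0.03, and the next, Tead4, was lower by 3.93. Ezh2, the polycomb methyltransferase of dividing cells, averaged 10.92 and exceeded Ezh1 by 3.12, and Lmnb1 exceeded Lmna by 2.75.

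Among lineage families Neurod4 (8.53 ± 0.16) was the brightest NEUROD member and the next, Neurod2, averaged 5.77. Hes6, which opposes the Notch effector Hes1, averaged 9.57, and Hes5 and Hes1 averaged 6.73 and 6.12. Nkx2-1 exceeded Nkx2-2 by 3.00. Cdh2, N-cadherin, averaged 11.17 ± 0.02 and exceeded the next classical cadherin, Cdh4, by 2.57, while Cdh1 stood at the floor. The brain polypyrimidine tract gene Ptbp2 averaged 10.17 and its non-neural paralog Ptbp1 11.79. Of the Notch receptors Notch2 averaged 7.24, Notch1 6.17, Notch4 5.96 and Notch3 5.52, whereas all 5 Delta and Jagged ligand genes were above the receptor reference, with Dll3 (8.56) and Dll4 (8.52) changing order between arrays. Sox11 and Sox4, Yap1 and Wwtr1, Pfkp and Pfkl, and Stx4a and Stx2 also changed order between arrays. In 15 families the gap was under 0.5, and in 37 every measured member was above the receptor reference. The vesicular glutamate transporters, led by Slc17a8 (5.56) and Slc17a7 (4.97), had no member above.

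**Figure D3:**
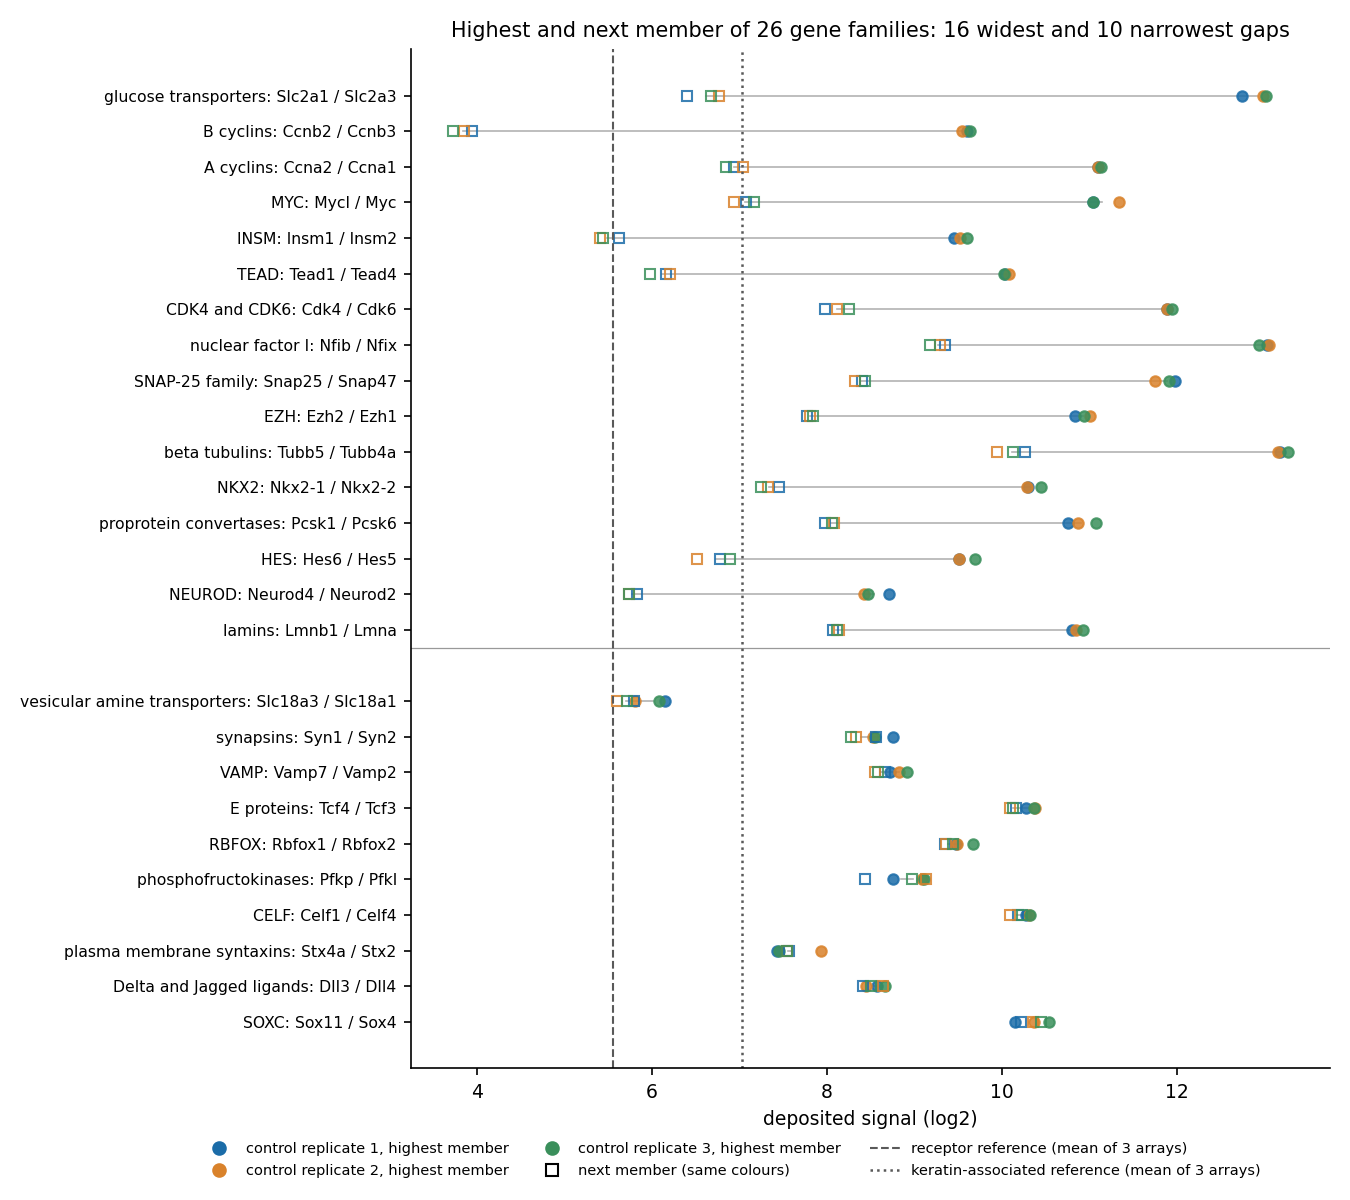
Signal (x axis, log2) of the highest member (filled circles) and the next (open squares) on each control array (colours) in 26 of 67 gene families, the 16 widest gaps above the grey line and the 10 narrowest below it. Slc2a1, Ccnb2, Ccna2, Mycl and Insm1 stand 4.03 to 6.30 above their next member, and the symbols of Sox11 and Sox4 intermix.

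The median SD over the 3 arrays was 0.126 for all genes, 0.0990 for genes above the receptor reference and 0.172 for genes above on no array, and it dropped from 0.210 in the lowest 10% of levels to 0.0689 in the highest 10%. Correlations across genes between arrays were 0.993, 0.992 and 0.994, and no 2 arrays held identical values. Among genes above the reference 55 had an SD over 0.5. The 10 largest were those of Oasl1 (0.96), Nefl (0.93), Vdr (0.88), Bnip3 (0.87), Rsad2 (0.86), Ifih1 (0.80), Snora30 (0.80), Snord72 (0.79), Snora62 (0.76) and 2310067E19Rik (0.75).

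These spreads were not shared evenly by the arrays. Oasl1 read 8.06, 6.18 and 6.83, Rsad2 8.86, 7.33 and 7.43, and Ifih1 8.27, 6.70 and 7.19. All 3 are interferon-induced genes of antiviral defence and were highest in control replicate 1. Nefl, the neurofilament light chain gene, read 9.15, 7.44 and 7.68, and Nefm 7.89, 6.57 and 6.75, also highest in replicate 1. Bnip3, a mitophagy receptor gene induced by low oxygen, read 7.15, 8.77 and 8.50, lowest in replicate 1. Of genes picked after their values were seen, the interferon-induced Cxcl10 (8.34, 7.17 and 7.59) and Ifit1 (7.22, 6.06 and 6.58) were highest in replicate 1. Pdk1 (7.48, 8.62 and 8.36), P4ha1 (7.71, 8.71 and 8.66) and Fam162a (8.41, 9.45 and 9.35), which low oxygen also induces, were lowest there. Pdk1 had a second probe set at 3.17, and averaging both moved it by 31.3 percentile points. Dcx, the neuronal migration gene doublecortin, read 8.29, 9.05 and 9.59, and Pou3f2 6.47, 7.08 and 7.89, with SDs of 0.66 and 0.71. Among the 200 genes above the reference with the largest SD, replicate 1 was the array farthest from the other 2 in 122, replicate 2 in 36 and replicate 3 in 42.

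**Figure D4:**
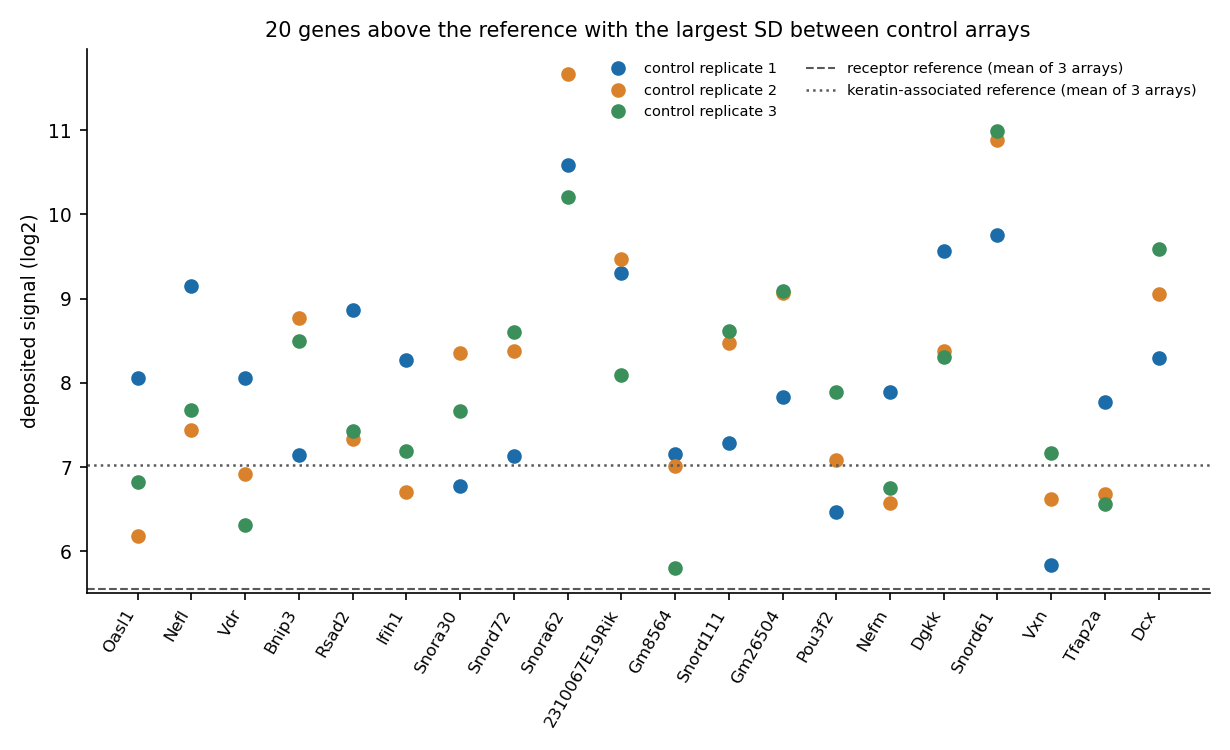
Signal (y axis, log2) on each control array (colours) of the 20 genes above the receptor reference with the largest SD between arrays. Oasl1, Nefl, Rsad2 and Ifih1 are highest in replicate 1 and Bnip3 is lowest there; dashed and dotted lines are the receptor and keratin-associated references.

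The sequence before the gene start, which the choice of genes did not use, varied with the level. RefSeq windows of GRCm38.p6 were found for 16918 of the 22180 genes, and the 250 bases before the start were read. Genes above the receptor reference had a median of 16 CG dinucleotides, 60.4% G+C and an observed over expected CG ratio of 0.722, and genes above on no array 3, 47.2% and 0.209. With the receptor genes left out, the latter had 3, 49.2% and 0.244. In 10 equal groups of genes by level, from the dimmest to the brightest, the median CG count went 1, 2, 4, 5, 8, 13, 16, 17, 18 and 19. The letters TATAAA on either strand were in 7.79% of windows of genes above and 22.02% of those above on no array, with 13.2% over all windows. Probe sequence composition also differs between genes and its part in these signals was not tested.

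The neuroendocrine marker and granule lists stood apart from this order, and the transcription factor list did not. Windows of 23 neuroendocrine markers had a median of 11.5 CG dinucleotides and those of 27 granule genes 11, against 18.5 and 18 in the G1/S and G2/M lists, although all 4 lists were bright. The marker and granule lists share members, among them Chga, Chgb, Scg3 and Ptprn, so their values are not separate observations. Windows of 33 neuroendocrine and neural transcription factors had a median of 15, beside 16 in the group of genes by level that holds this list's median percentile of 63.6. Those of 23 synaptic genes had a median of 14, beside 17 in the group that holds their median percentile of 78.5. CAGCTG, the E-box core that proneural bHLH dimers can bind, reads the same on both strands and was found in 14.3% of all windows. It was in 30.4% of the neuroendocrine marker windows, 33.3% of the granule windows, 26.1% of the 23 synaptic windows, 24.2% of the transcription factor windows, 8.33% of the G1/S windows and 62.5% of the 8 skeletal muscle windows. The Chga window holds it and those of Syp, Neurod1 and Alb do not. Some lists of other cell types had CAGCTG as often: 33.3% of 6 photoreceptor windows and 33.3% of 6 alveolar type 2 windows. Others had it less often: 8.33% of 12 hepatocyte windows and 11.1% of 36 G2/M windows. Among the peptide precursors it was in 16.7% of 48 windows. These shares rest on few windows and do not show that CAGCTG marks the neuroendocrine lists. A match of letters is not a bound site.

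Bright genes were also grouped by position, a feature looked for after the levels were seen. Along the RefSeq order of 18974 protein-coding genes, the median percentile in windows of 21 neighbouring genes had a median of 58.4, and 5% of windows exceeded 76.4. The highest window, at 93.2, ran from Rimkla to Rlf on chromosome 4, and the next separate windows, at 90.2 (Zbtb40 to Mul1) and 86.7 (Kdm4c to Haus6, which holds Nfib), lay on chromosome 4 as well. Of the 1125 chromosome 4 genes 34 (3.02%) were among the brightest 1% of genes, against 0.891% on all other chromosomes.

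Mycl lay inside such a run. The 8 genes from Ppt1 to Ppie averaged between 8.55 and 13.33 with a median percentile of 99.5, and 5 of the 8 were above percentile 99: Ppt1 (12.36), Cap1 (13.33), Mfsd2a (11.81), Trit1 (12.50) and Ppie (11.82). The 11 genes that follow, Hpcal4 to Rhbdl2, had a median percentile of 52.0 and none above 99. On the other side stand 6 genes near the floor, from Gm12888 to 9530002B09Rik (median percentile 13.4), and then the 13 genes from Scmh1 to Rlf at 94.5. The 7 genes from Nfib to Psip1 had a median percentile of 96.9.

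The genes around Mycl also moved together between the control arrays. Replicate 2 was the highest array for all 8 genes from Ppt1 to Ppie, by a median of 0.20 log2 units over the mean of the other arrays, whereas it was the highest for 27.2% of genes above the receptor reference. Of 18827 runs of 8 neighbouring genes in the genome, 5 had replicate 2 highest throughout, 25 had replicate 1 and 15 had replicate 3; this run was picked after its values were seen. Replicate 2 was also the highest for 6 of the 7 genes from Nfib to Psip1 and for 9 of the 13 from Scmh1 to Rlf. It was the highest for 4 of the 11 from Hpcal4 to Rhbdl2. From Kdm1a to Ddost, a less bright stretch of chromosome 4 (median percentile 74.6), it was highest for 11 of 24 and replicate 1 for 10. Among genes above the receptor reference alone, as in the 27.2%, the counts were 8 of 11 from Scmh1 to Rlf, 4 of 8 from Hpcal4 to Rhbdl2 and 10 of 19 from Kdm1a to Ddost. Shares over 27.2% were thus not confined to the stretches around Mycl and Nfib. Mycl is 1 of the 8 genes from Ppt1 to Ppie. DNA copy number was not analysed here.

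**Figure D5:**
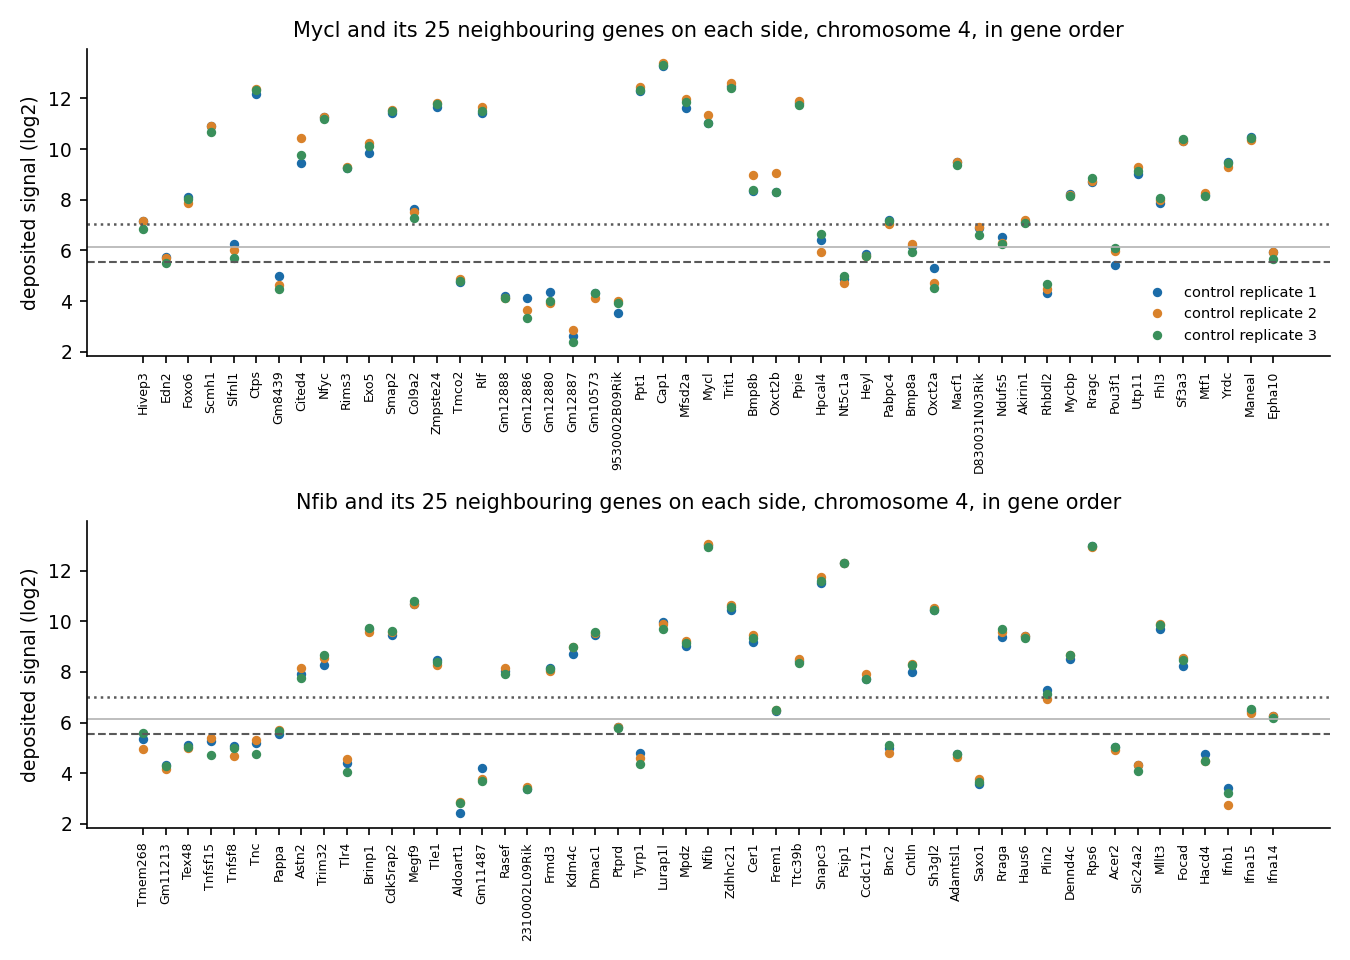
Signal (y axis, log2) on each control array (colours) of Mycl and Nfib and of 25 neighbouring protein-coding genes on each side, in gene order along chromosome 4 (x axis). The run from Ppt1 to Ppie around Mycl, bounded after the values were seen, includes the dimmer Bmp8b (8.56) and Oxct2b (8.55) and is followed by Hpcal4 (6.33). Grey, dashed and dotted lines are the median of all genes and the receptor and keratin-associated references.

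Genes at the floor made up the rest. No bitter taste receptor gene of 35 and no milk protein gene of 7 was above the receptor reference, and Csn1s1, a casein gene, averaged 2.76. The 10 lowest genes averaged 1.31 to 1.48 and were mostly receptor genes and small loci, among them Olfr1097, Olfr814, Mir465 and Il22. Of 13 hepatocyte genes 4 passed the receptor reference and of 8 photoreceptor genes 3. Of 4 erythroid markers 1 passed it, and of 4 basal airway markers 1. None of these genes passed the stricter one. Of all genes 56.6% and 38.2% passed these references. Of the 483 microRNA loci 105 (21.7%) passed the receptor reference and 31 the stricter one. Small nucleolar RNA genes were mostly not at the floor: of 78, 72 (92.3%) passed the receptor reference and 62 the stricter one. A value at the floor is a bound set by probe background and does not show that the transcript was missing. Bulk RNA also cannot tell fewer cells with a transcript from less transcript in each cell.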

How the data were processed

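Total RNA of 3 control samples was measured on 1 array each. The authors deposited log2 signals per probe set after RMA, per the submitters' processing notes, which name no version. The logarithm's base and the genome build were not given in the sources used here, and RMA's own base of 2 was taken. RMA sets all arrays to a common distribution, so total RNA per cell does not show, and whether the 3 other arrays were normalized together with these is not stated. Arrays have no read depth, and having 3 of them limits the precision.

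GEO's platform annotation paired 23521 of 41345 probe sets with 1 symbol and 1814 with several; 16010 were not listed with a gene. No values of the other arrays were used, no test was run and no p-value is given, since there is a single group. Calls, ranks, gaps and promoter features were computed in Python 3.11.15 with pandas 2.3.3 and numpy 2.4.6, after a check on simulated data, and drawn with matplotlib 3.10.9. Each ± is the SD over 3 arrays.

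The members and gene lists were chosen with earlier results of these data known. Named were the deleted genes, 5 neuroendocrine markers, the 20 brightest genes, all members of lists of up to 8, otherwise up to 8 highest and 4 lowest, up to 6 members above the reference in marker lists of other cell types, the highest and next paralog with members that other lists hold, and the 10 largest SDs; further names were chosen after their values were seen.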

Additional observations from a re-analysis of the deposited data

How the results depend on the processing

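Other references, the mean over probe sets, a repeated quantile normalization and leaving out each array kept the count of genes above within 1.5 times 12551, between 8465 (keratin-associated reference) and 14700 (90th percentile of the receptor genes). Leaving out 1 array gave 12714 to 12818. Of the lists led with, the peptide precursors alone moved further, to 7 above the 99th percentile of the receptor genes and 3 above the keratin-associated reference. The CG ratio of genes above minus genes above on no array was 0.513, with 0.509 when split at the array median and 0.506 without any 1 array. Averaging probe sets moved Rb1 from percentile 96.5 to 71.6, Syp from 78.5 to 52.8, Uchl1 to 80.9 and Yap1 from 53.9 to 24.0, and made Rbl1 the brightest RB gene and Wwtr1 brighter than Yap1. Windows of 11 and 41 genes, chosen after seeing the data, also peaked on chromosome 4, at 98.6 and 91.7. No paired analysis was possible because only 1 group was described.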

Other observations

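A few genes of silent tissues read far above the rest of their list, each with a second probe set near the floor. Odf1, which encodes a structural protein of the sperm tail, read 11.94, 12.03 and 11.91, and its other probe set averaged 5.66, while the other 7 spermatid genes averaged at most 6.46. Vmn1r233, a vomeronasal receptor gene, averaged 12.37 on one probe set and 3.62 on the other.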
